A study of Mus musculus with 6 samples.

Results

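A total of 257 of the 1066 common Sox6 peaks lay inside introns and far from RNA polymerase II (Pol II). These peaks were selected on 2 criteria taken from the deposited peak lists. The centre of the peak fell in an intron of the longest RefSeq-supported model of a gene, and neither Pol II replicate had a peak within 10 kb of it. Of the 549 common peaks in introns, the other 292 had a Pol II peak within 10 kb and are called near intronic peaks here. A further 270 common peaks, more than 20 kb from any gene, are called intergenic. Because the Sox6 and Pol II calls chose the members, enrichments of either protein at them are given as a description. Counts of members past a limma threshold are given in the same way, and nothing is read from them.

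All libraries came from wild type C57BL/6 mice. Fetal limb muscle at E18.5 gave primary myoblasts, which were at 17 passages and were kept for 48 h in medium with 2% horse serum to form myotubes. Chromatin, crosslinked first with disuccinimidyl glutarate and next with formaldehyde, was precipitated with a rabbit polyclonal antibody to Sox6 or with a mouse monoclonal antibody to the Pol II C-terminal repeat. Input DNA, with no antibody, was sequenced alongside, which gave 3 groups of 2 libraries. No Sox6 mutant cells and no RNA were among these libraries, so a peak cannot be tied here to a change in the level of its host gene. The study's methods describe the replicates as independent immunoprecipitations, and the sources do not say how many animals gave the cells or whether each experiment used a separate culture.

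Sox6 is a transcription factor of the SoxD family that binds the minor groove of DNA through its HMG box and has no activation domain of its own, so that its action depends on its partners. In fetal skeletal muscle it is known to hold down genes of the slow fiber program. Introns often hold enhancers and silencers, and a factor bound there may lie far from the promoter it acts on. Pol II gathers at the starts and along the bodies of genes being transcribed.

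The windows of the most enriched members, and of others that the results return to, show which short words recur at their centres. Each sequence covers 201 bases of the plus strand of NCBI Build 37, from 100 bases before to 100 bases after the peak centre. Capitals mark the words searched on both strands: ACAAAG or ACAATG for Sox factors, CAGCTG or CAGGTG for the E-box of basic helix-loop-helix factors such as MyoD, CCACA for Runx factors and GGAATG for Tead factors.
Prox1, chr1:191952681-191952881: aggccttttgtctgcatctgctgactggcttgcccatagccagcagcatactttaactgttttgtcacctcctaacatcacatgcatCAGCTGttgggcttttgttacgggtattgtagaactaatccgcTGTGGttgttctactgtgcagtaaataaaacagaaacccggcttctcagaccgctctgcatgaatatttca
Mylk3, chr8:87904611-87904811: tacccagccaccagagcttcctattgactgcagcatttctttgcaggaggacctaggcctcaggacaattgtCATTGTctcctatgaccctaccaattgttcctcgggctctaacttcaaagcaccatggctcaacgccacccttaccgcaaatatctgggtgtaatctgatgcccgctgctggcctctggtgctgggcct
Pak3, chrX:139977801-139978001: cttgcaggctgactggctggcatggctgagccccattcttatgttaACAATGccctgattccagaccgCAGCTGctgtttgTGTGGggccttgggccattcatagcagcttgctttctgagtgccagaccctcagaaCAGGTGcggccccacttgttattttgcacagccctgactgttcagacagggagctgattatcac
4931406P16Rik, chr7:35032021-35032221: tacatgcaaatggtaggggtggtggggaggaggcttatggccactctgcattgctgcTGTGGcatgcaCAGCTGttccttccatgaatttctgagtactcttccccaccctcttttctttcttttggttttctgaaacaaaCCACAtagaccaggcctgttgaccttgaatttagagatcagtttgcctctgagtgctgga
Tcerg1l, chr7:145549251-145549451: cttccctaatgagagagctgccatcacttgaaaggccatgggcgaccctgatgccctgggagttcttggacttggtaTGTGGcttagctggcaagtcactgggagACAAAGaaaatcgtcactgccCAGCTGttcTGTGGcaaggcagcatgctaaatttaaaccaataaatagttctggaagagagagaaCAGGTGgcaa
Npas3, chr12:54427901-54428101: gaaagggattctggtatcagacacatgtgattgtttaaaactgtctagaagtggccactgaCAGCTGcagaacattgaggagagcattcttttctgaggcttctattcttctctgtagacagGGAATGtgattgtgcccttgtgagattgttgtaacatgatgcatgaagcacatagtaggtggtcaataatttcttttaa
Met, chr6:17512531-17512731: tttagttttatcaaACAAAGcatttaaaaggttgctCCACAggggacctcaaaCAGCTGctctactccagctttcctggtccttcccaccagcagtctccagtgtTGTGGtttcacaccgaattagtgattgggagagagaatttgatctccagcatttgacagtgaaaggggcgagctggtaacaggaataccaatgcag
Prox1, chr1:191956951-191957151: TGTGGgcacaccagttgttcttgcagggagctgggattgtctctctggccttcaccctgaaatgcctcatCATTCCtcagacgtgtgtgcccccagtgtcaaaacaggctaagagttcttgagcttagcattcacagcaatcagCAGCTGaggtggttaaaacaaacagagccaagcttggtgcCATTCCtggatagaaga
Igf1, chr10:87390051-87390251: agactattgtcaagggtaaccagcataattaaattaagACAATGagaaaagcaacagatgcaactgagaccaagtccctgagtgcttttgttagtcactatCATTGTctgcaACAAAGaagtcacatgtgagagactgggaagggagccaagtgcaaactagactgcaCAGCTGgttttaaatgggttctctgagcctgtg
Acvr1b, chr15:101026731-101026931: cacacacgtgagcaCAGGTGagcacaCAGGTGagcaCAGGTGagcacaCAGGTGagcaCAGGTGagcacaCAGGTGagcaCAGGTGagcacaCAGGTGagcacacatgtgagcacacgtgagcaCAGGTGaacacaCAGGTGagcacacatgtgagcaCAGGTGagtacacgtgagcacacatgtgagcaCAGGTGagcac
The strongest window, in Prox1, held an E-box and a Runx word near its centre but neither Sox word. The Mylk3 window held 1 Sox word and none of the other 3 kinds. Both the lower ranked Prox1 window and that of Npas3 paired an E-box with a Tead word. The Igf1 window held 3 Sox words, the most in any member and a number reached by 6. The Acvr1b window, chosen after its values were seen, held 12 E-boxes in a short tandem array, the most in any member.

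Sequencing depth limited the precision of all values that rest on read counts. The Sox6 libraries held 2985437 and 1468604 reads, the Pol II libraries 1538757 and 2762155, and the inputs 21973495 and 24249850. Reads were 36 bases long in input replicate 1 and 39 in the other libraries. The part of this in differences between the inputs was not tested. Intervals given here cover counting error only. Pol II at gene starts was first checked against marker genes of the labelled cells. All 11 skeletal muscle markers measured, among them Myod1, Myog and Myh3, had more Pol II than input at their start (limma, adjusted p under 0.05), with summed Pol II levels of 311 and 349 reads scaled to library size (RPM) in replicates 1 and 2 against 8.56 and 10.1 RPM in the inputs. None of the 6 fibroblast and matrix markers with enough input reads for the test did, and the whole list of 7, which includes Pdgfra, had sums of 2.60 and 0.724 RPM. Col3a1, Dcn and Lum had no Pol II read in either library. None of 5 neuron and glia markers tested did, and the list of 6, which includes Mbp, had sums of 1.3 and 3.26 RPM. Of 6 blood and endothelium markers tested 1 did, Cd68, and Ptprc, Pecam1 and the untested Kdr had no Pol II read. The part of these cells in the results was not tested.

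Sox6 reads stood well above input at nearly every member. The median member had 15 Sox6 reads in replicate 1 and 9 in replicate 2 within 450 bp around its centre, against 10 and 12 reads in inputs sequenced several times deeper. Scaled to library size, these medians were 5.02 and 6.13 RPM against 0.46 and 0.49 RPM. Summed over the 257 windows and with nothing added to the counts, Sox6 was 9.74-fold over input in replicate 1 and 11.4-fold in replicate 2. At 2 kb on either side of the peaks the same ratio was 1.13-fold in both replicates. The enrichment was therefore a narrow one, as the profile of reads around the members shows.

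**Figure D1:**
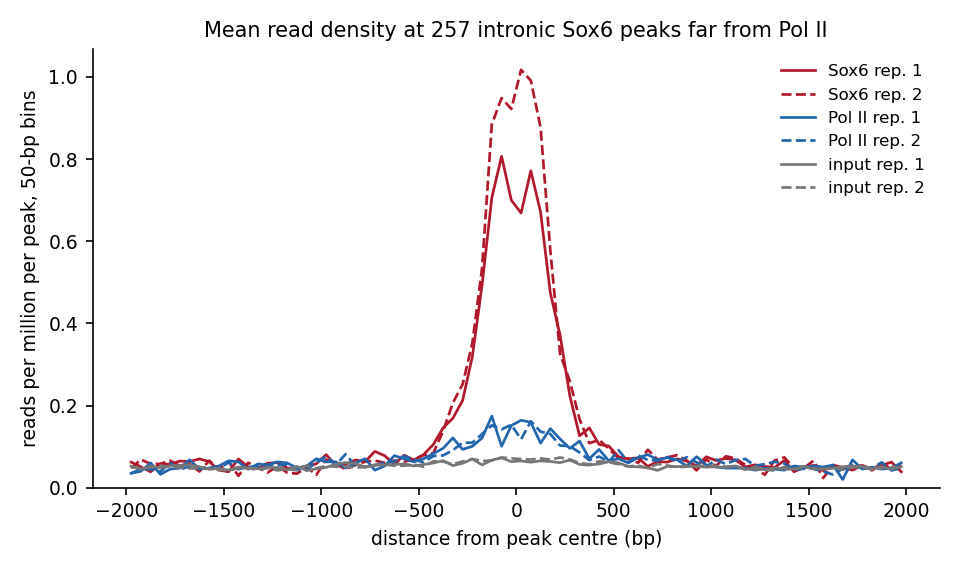
Mean read density around the centres of the 257 members, in RPM per peak and bins of 50 bp, against the distance from the centre in bp. Solid and dashed lines are replicates 1 and 2 of Sox6 (red), Pol II (blue) and input (grey), and the Sox6 lines rise within 500 bp of the centre while Pol II and the inputs rise far less.

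On the log2 scale, after 0.5 reads were added to each count, the median member was 3.56 above input, with quartiles of 3.15 and 4.10. The median standard error of a member was 0.47 (limma, n = 2 against 2). By the limma fit over all common peaks, 253 of the 257 members were above input, where the same held for 96.7% of all common peaks. Since these peaks were called on the same reads, nothing is read from that count. The near intronic peaks had a similar median log2 ratio of 3.42.

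Common peaks were called in both replicates, so nothing is read from the presence of signal in both. The replicates agreed only in part on its size. In both replicates 240 members had a log2 ratio over 2, and 9 were at or below 2 in both. The replicate log2 ratios lay within 1 of each other for 191 members (74.3%). Across members, which are peaks of the same libraries and not independent replicates, the replicate log2 ratios had a Pearson r of 0.62 and a Spearman rho of 0.49. Without the 11 members described next, these were 0.51 and 0.45. Of the 50 members ranked highest in each replicate, 23 were shared. An order among members of middling rank is therefore not resolved at this depth.

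A total of 11 members stood apart by their input. Their 450-bp windows held more input reads than 95% of all common peaks, 51 to 249 over both libraries against 6 to 47 at the other 246 members. Their median Sox6 log2 ratio was 1.11, against 3.62 at the others. Of these, 8 lay together on chromosome 11, at chr11:3056662-3093781, in introns of Sfi1, which encodes a centrin-binding protein of the centrosome, and of Drg1, which encodes a GTP-binding protein. Their log2 ratios ran from -0.26 to 1.51, and were the 8 lowest of all members. The widest deposited peak among the members, 2240 bp, was also in Sfi1, whereas the median member was 140 bp wide. Another pair of the 11, in Tcte2 and Smo, shared stretches of 25 bases with each other, and their replicates differed most through the input. At Smo the inputs held 13 and 65 reads and the log2 ratio was 3.08 in replicate 1 and 0.18 in replicate 2. At Tcte2 they held 7 and 50 reads, with log2 ratios of 4.65 and 1.78. Without these members the summed Sox6 reads were 12.1-fold over input in replicate 1 and 14.3-fold in replicate 2, and 1.14-fold and 1.16-fold at 2 kb on either side.

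**Figure D2:**
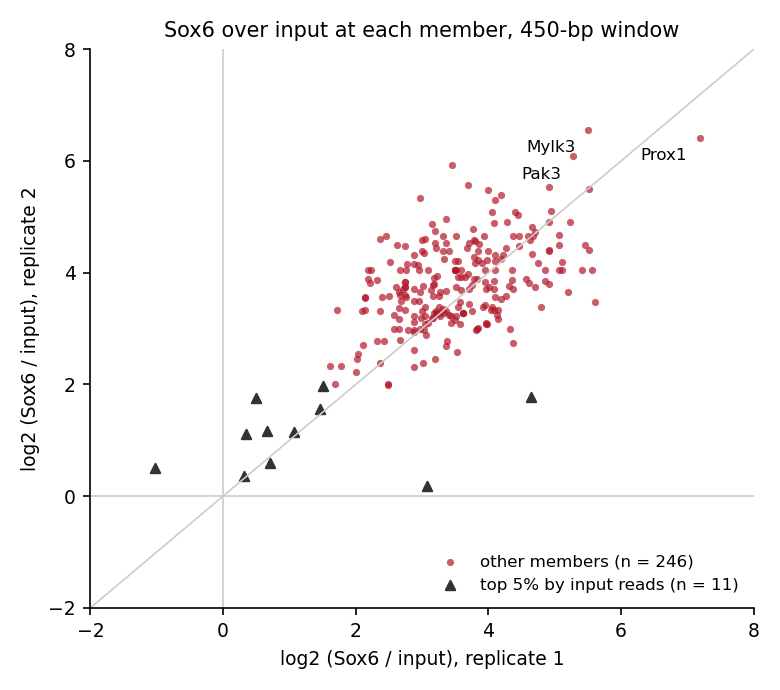
Log2 ratio of Sox6 to input at each member in replicate 1 (horizontal axis) and replicate 2 (vertical axis), in windows of 450 bp with 0.5 reads added. Triangles are the 11 members in the top 5% of common peaks by input reads, most of which lie at the lower left, and Prox1, Mylk3 and Pak3 lie at the upper right of the 246 others.

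The most enriched member was in Prox1, at chr1:191952722-191952841, in intron 4 of 4 and 41778 bp from the gene start. Prox1 is a homeodomain transcription factor of lymphatic, liver and muscle development. Its window held 49 and 28 reads from Sox6 and 2 and 5 from input, so that both Sox6 libraries were far above both inputs. The log2 ratio was 6.80 ± 0.47 (SE, n = 2), and the replicates gave 7.19 and 6.42. A second member, at chr1:191957022-191957081 in the same intron, had 22 and 14 reads from Sox6 and 5 and 11 from input (log2 ratio 4.65 ± 0.47). Prox1 had a single annotated model, and no Pol II peak lay in it. The nearest Pol II peak was 343 kb from the stronger member. Pol II reads, though few, were above input for their depth at both members. The stronger had 2 and 7 Pol II reads against 2 and 5 from input (log2 ratio 3.71 ± 0.86). The other had 2 and 5 against 5 and 11 (2.38 ± 0.73).

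The second was in Mylk3, which encodes a cardiac myosin light chain kinase, at chr8:87904642-87904781. It was the member closest to a gene start, 166 bp from it, and lay in intron 1 of 12 at 47 bp from the nearest exon. Sox6 gave 52 and 31 reads there, and input 8 and 5 (log2 ratio 6.03 ± 0.45). Pol II was at the level of input there, with 0 and 1 reads, and around the start itself where each replicate had 1 read in 1000 bp and the inputs 18 and 23. The closest Pol II peak was 159 kb away. Only 2 members (0.778%) lay within 1 kb of the start of their host, so a peak so near a start was the exception.

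In Pak3, which encodes a p21-activated kinase and lies on the X chromosome, the member at chrX:139977762-139978041 held 18 and 14 reads from Sox6, with 3 in each input (log2 ratio 5.69 ± 0.68). The member in the uncharacterised gene 4931406P16Rik, at chr7:35032042-35032201, held 77 and 31 Sox6 reads, the first of these the highest count in replicate 1, against 12 and 11 input reads (log2 ratio 5.51 ± 0.44). It was among the members closer to Pol II, with a peak 13.0 kb away. The other 6 of the 10 highest were in Tcerg1l, Npas3, Ssbp2, Sobp, Gja5 and Ccdc122, with log2 ratios of 5.22, 5.08, 5.03, 4.97, 4.96 and 4.92. Npas3 is a bHLH-PAS transcription factor and Gja5 encodes connexin 40, a gap junction protein of cardiac and vascular cells. All 10 had more Sox6 than input in each replicate, and the choice of common peaks had required a call in each. When Sox6 replicate 2 was left out, Ssbp2, with 10 and 13 Sox6 reads, had a log2 ratio of 4.33, its lowest with a library left out. Without Sox6 replicate 1 or input replicate 1 or 2 it was 5.72, 4.41 and 5.64. Gja5, with 2 and 10 input reads, had a log2 ratio of 3.996 without input replicate 1 and 5.92 without input replicate 2, the widest range of the 10.

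Pol II reads at the members were few but not uniformly at the level of input. The median member had 2 Pol II reads in replicate 1 and 3 in replicate 2, and 53 members (20.6%) had no Pol II read in replicate 1 and 22 (8.56%) had none in replicate 2. Summed over all 257 windows, with nothing added, Pol II was 2.14-fold over input in replicate 1 and 1.99-fold in replicate 2. At 2 kb on either side the ratio was 1.02 and 0.973, and over the whole 20 kb around the centre 1.04 and 1.05. Without the 11 members of many input reads, the ratio was 2.57-fold and 2.43-fold in the windows, 1.3 and 1.21 at 2 kb, and 1.3 and 1.31 over the 20 kb. With or without them, the ratio was thus higher in the 450 bp around the Sox6 centre than at 2 kb from it, while the level around the centres was close to input or somewhat above it depending on these 11. The inputs themselves held 1.33 and 1.44 times as many reads in these windows as at 2 kb on either side. Without the 11 members these values were 1.54 and 1.61. The ratios to input divide by these reads, and the source of the Pol II excess that remains was not tested.

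By the limma fit, 103 of the 257 members (40.1%) had more Pol II than input, below the 58.4% of all common peaks. The selection removed peaks near called Pol II, and so nothing is read from this difference. The count depended on both inputs. Without input replicate 1, 12 members (4.67%) passed, where 28.3% of all common peaks did, and without input replicate 2, 17 (6.61%) passed, where 30.5% did. The median Pol II log2 ratio was 1.33, and 179 members were above input in both replicates and 19 below it in both. With 0.5 reads added to counts this low, small positive log2 ratios are inflated, and the summed ratios above are the firmer measure. Among the 292 near intronic peaks, the summed ratio was 5.98 and 5.29 in the windows and 4.45 and 4.29 at 2 kb on either side. These groups were split on the distance to called Pol II, so nothing is read from the difference between them.

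**Figure D3:**
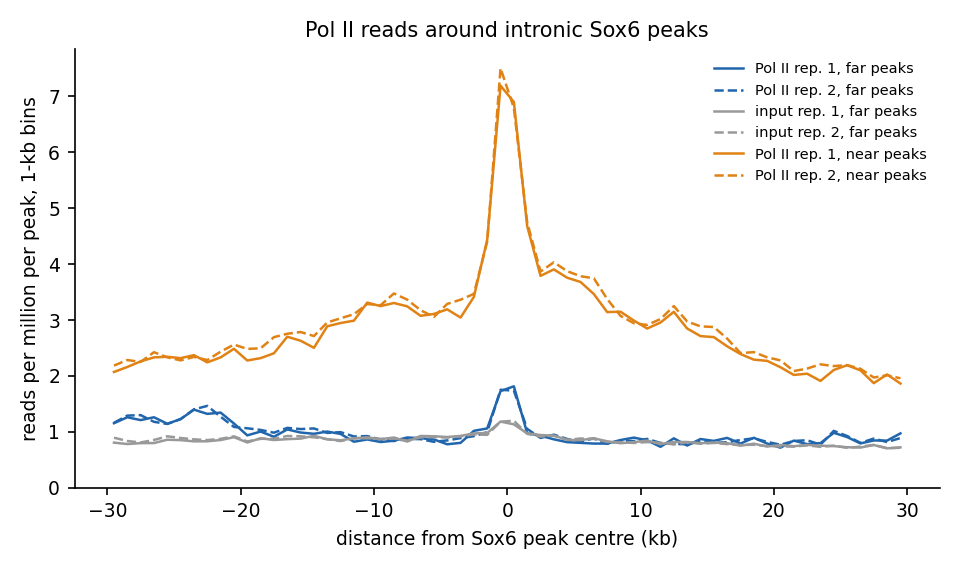
Pol II reads around intronic Sox6 peaks in RPM per peak and bins of 1 kb, against the distance from the Sox6 peak centre in kb, for the 257 far peaks (blue) and the 292 near peaks (orange), with solid and dashed lines for replicates 1 and 2 and input at the far peaks in grey. Pol II over all 257 far peaks lies close to input within 10 kb except next to the centre, while Pol II at the near peaks is above it throughout, and the peaks were chosen on this distance.

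The distance to the nearest Pol II peak ranged from 10.1 kb to 2645 kb, with a median of 91.7 kb. No Pol II peak lay within 50 kb of 157 members (61.1%), within 100 kb of 122 (47.5%) or within 1 Mb of 12 (4.67%). The most remote was in Kcnd2, which encodes a voltage-gated potassium channel, and the next in Cntnap5a, which encodes a contactin-associated protein, at 2260 kb. Members just beyond 10 kb were in Rhobtb1, Srgap2, Hecw2 and Zeb2, at 10070, 10460, 10710 and 10800 bp. Just within were peaks in Svil, Brd7, Ndufa9, Carm1 and 2010111I01Rik, at 10000, 9390, 9250, 8770 and 8350 bp. The Sox6 log2 ratios were 3.52, 3.86, 3.24 and 3.21 for these 4 beyond and 3.95, 4.57, 3.57, 3.76 and 4.83 for the 5 within, so the values on either side of the limit overlapped.

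The members lay deep inside long genes. The 257 peaks fell in 233 host genes, of which 214 held 1 member, 17 held 2, Foxn3 held 3 and Sfi1 held 6. In all, 252 of the members (98.1%) were in protein-coding genes. The median host of a member was 134 kb long and the median intron 28.2 kb, and the median member lay 54.0 kb from the gene start and 4587 bp from the nearest exon. Beyond 50 kb from the start lay 137 members (53.3%, 95% exact interval 47.0% to 59.5%), and within 10 kb of it 27 (10.5%, 7.04% to 14.9%). The first intron held 68 (26.5%, 21.2% to 32.3%) and the last intron 18 (7.0%, 4.20% to 10.8%). Near intronic peaks also lay deep inside long genes, with medians of 40881 bp from the gene start and 3923 bp from the nearest exon. Their hosts were shorter, with a median of 104 kb, and 106 of these peaks (36.3%, 30.8% to 42.1%) lay in first introns. These positions were not tested between the groups, since a peak close to a gene start is more likely to have a Pol II peak nearby.

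The share of genes that held a member was higher among longer genes, a description with no test. Of genes of 200 kb or more, 8.40% held a member, as against 4.24% of genes of 100 to 200 kb, 1.96% of those of 50 to 100 kb and 0.03% of those under 20 kb. The share that held a near intronic peak rose in the same way, at 5.99%, 4.17%, 1.96% and 0.195% of these genes. The rise is therefore not particular to the members. Assignment to a host rested on a single one of several annotated models for 31 members. The clearest case was the member assigned to Fgfr2, a fibroblast growth factor receptor. It lay 875492 bp from the start of a model 3009 kb long, whereas the next longest of 29 models was 104 kb and did not reach it. The members in Gja5, where that model was 173 kb long and the next 21.2 kb, and in Egfr, Srgap2, Prkag2, Yme1l1 and Bbox1 also rested on 1 of several models. The Fgfr2 centre also lay in an intron of Chst15, which encodes a carbohydrate sulfotransferase. In all, 9 members, that in Fgfr2 among them, lay within introns of more than 1 gene, and 2 coincided with an exon of a model that was not the longest.

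Named groups of host genes were described by counts, beside the share of all 23274 genes that held a member (1.0%) or a near intronic peak (1.04%). The lists were drawn up with earlier results of these data known. Over the 7 lists, 42 of 783 genes (5.36%) held a member and 43 (5.49%) a near intronic peak. The list genes are long, with medians from 26.5 kb for the sarcomere list to 196 kb for the adhesion list against 15.0 kb for all genes, and the part of length in these shares was not tested.

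Growth factor and kinase signalling held the most host genes. Members were found in 14 of its 155 genes (9.03%) and near intronic peaks in 2 (1.29%). The highest of these was in Egfr, the epidermal growth factor receptor, with 20 and 7 Sox6 reads against 4 and 5 input reads (log2 ratio 4.78 ± 0.65). It lay in intron 19 of 27, in 1 of 6 models. Ltbp2, which encodes a latent TGF-beta binding protein of the matrix, had 54 and 34 Sox6 reads against 18 and 17 (4.73 ± 0.44). Met, the hepatocyte growth factor receptor, which muscle precursors need to migrate into the limb, held 2 members. The one in intron 19 had 33 and 18 Sox6 reads against 9 and 11 (4.71 ± 0.45), and the one in intron 4 had 33 and 22 against 14 and 12 (4.49 ± 0.45). The replicates of both Met members were far above their inputs. Protein kinase C eta, encoded by Prkch, had 16 and 11 Sox6 reads against 6 and 9 (4.27 ± 0.50). Igf1, the insulin-like growth factor that promotes muscle growth, had 22 and 11 against 14 and 7 in its last intron (4.09 ± 0.46). The other 9 genes of this list, Map2k5, Plcg1, Acvr1b, Fgfr2, Arhgap24, Ltbp1, Prkce, Prkag2 and Gab2, had log2 ratios from 2.24 to 4.04.

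Among transcription and chromatin regulators, 10 of 209 genes (4.78%) held a member and 14 (6.70%) a near intronic peak. Besides Prox1 and Npas3, the highest were in Ets1, Foxn3 and Auts2. Ets1, a winged helix-turn-helix factor, had 24 and 16 Sox6 reads against 16 and 4 input reads (4.68 ± 0.46), and its replicates differed, at 3.45 and 5.92, with the inputs. Foxn3, a forkhead factor, held 3 members in introns 2, 3 and 4 with log2 ratios of 4.11 ± 0.66, 4.03 ± 0.46 and 3.49 ± 0.49. Auts2 had 14 and 9 Sox6 reads against 9 and 8 (3.85 ± 0.50). Sox6 itself held 2 members in intron 5 of 15, 351787 and 345057 bp from the gene start. The first, at chr7:122830402-122830541, had 11 and 11 Sox6 reads against 15 and 7 (3.56 ± 0.48), and the second 8 and 5 against 8 and 10 (3.0 ± 0.63), both no higher than the median member. Esrrg, a nuclear receptor of oxidative metabolism, held 2 members at 3.78 and 3.73, and Notch2, a receptor of cell fate decisions, 1 at 3.69, only 10.9 kb from a Pol II peak.

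In the sarcomere and Z-disc list 3 of 107 genes (2.80%) held a member and 12 (11.2%) a near intronic peak, beside the 1.0% and 1.04% of all genes. The 3 were Mylk3, Myot, which encodes the Z-disc protein myotilin (log2 ratio 3.76), and Fhod3, a formin that assembles actin filaments (3.09). The dystrophin complex and membrane skeleton gave 4 of 58 (6.90%) against 7 (12.1%), among them Ank2 at 4.55, Ank3 at 3.77 and Lpp at 3.18. Ank2 and Ank3 encode ankyrins, which tie membrane proteins to the spectrin network. Calcium handling gave 1 of 63 (1.59%) against 2 (3.17%), in Stim1, the calcium sensor of the endoplasmic reticulum (3.90). Ion channels gave 3 of 69 (4.35%) against 1 (1.45%), the potassium channel genes Kcnh7 (4.47), Kcnq5 (4.07) and Kcnd2 (2.85). Adhesion, guidance and matrix gave 7 of 122 (5.74%) against 5 (4.10%), led by Sulf2, an extracellular sulfatase (4.74), Cntnap5a (4.65), the collagen gene Col4a2 (4.21), the semaphorin gene Sema5a (4.09) and Col25a1 (4.06).

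The letters of the peak windows were not used in choosing the members, so shares could be tested between groups of peaks. The study, however, had found motifs of these 4 kinds by a search of the same common peaks. Their excess over the flanks and at the centres is therefore a description, and nothing is read from it. Within 100 bp of the centre, 165 of the 257 members (64.2%) held a Sox word, 166 (64.6%) an E-box, 189 (73.5%) a Runx word and 90 (35.0%) a Tead word. In windows of the same length 2 kb to either side, these shares were 27.0%, 20.04%, 47.1% and 10.9%. Over all 1066 common peaks they were 58.4%, 66.5%, 68.9% and 28.4%. ACAATG was found in 106 members and ACAAAG in 88, and CAGCTG in 138 as against 54 for CAGGTG. None of the 4 kinds of word was present in 6 members (2.33%) and all 4 in 24 (9.34%), where the shares over all common peaks were 5.25% and 7.22%. A match is a run of letters and not a shown binding site.

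The words gathered at the centre of the members, a description, since the motifs had been found in these same peaks. Sox words numbered 58.8 per 100 peaks within 50 bp of the centre, 3.76 times their density at 500 to 1000 bp. The corresponding ratio was 4.20 for E-boxes, 3.91 for Tead words and 1.93 for the shorter Runx word, which is frequent everywhere. Sox words and E-boxes were both present in 106 members (41.2%), with a median of 35.0 bp between the nearest pair, close to the 40.2% and 38.0 bp of all common peaks. Sox and Tead words were both present in 62 (24.1%), with a median of 34.5 bp, beside 17.6% and 40.5 bp for all common peaks, a difference that was not tested. A share with both words depends on the share with each, and whether the words pair was not tested.

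**Figure D4:**
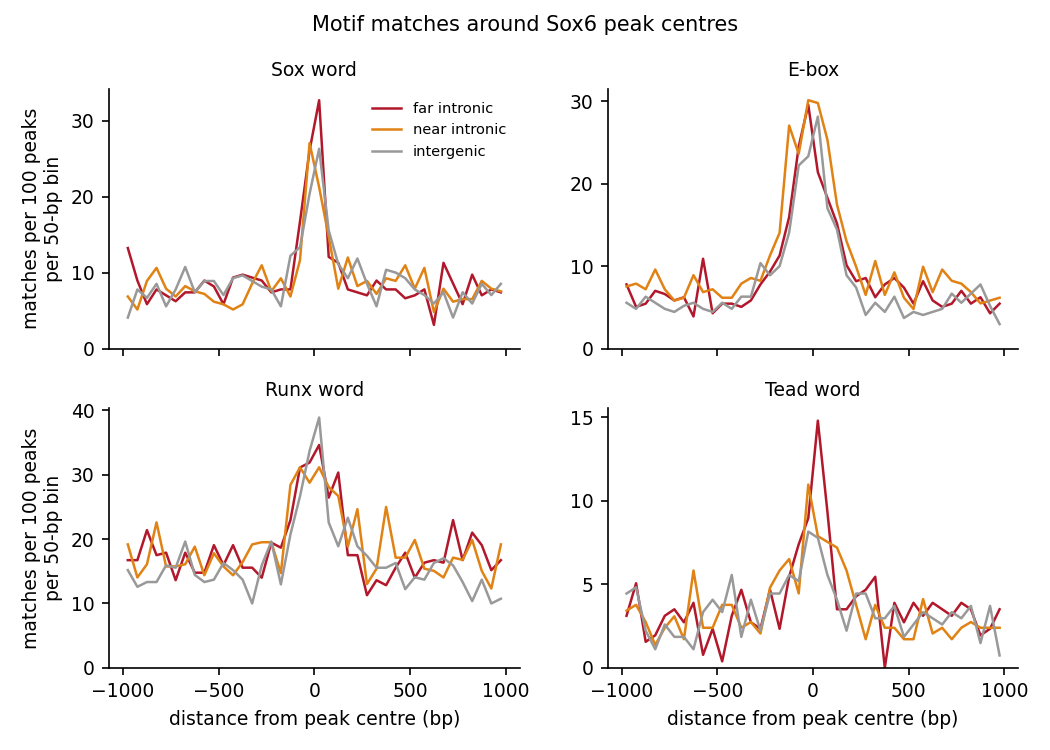
Matches per 100 peaks in bins of 50 bp, against the distance from the peak centre in bp, for Sox words, E-boxes, Runx words and Tead words on both strands, in far intronic (red), near intronic (orange) and intergenic (grey) peaks. All 4 kinds of word rise at the centre in each of the 3 groups of peaks.

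Of the differences in motif share between the members and other common peaks, 1 passed the test, and it did not hold in most other settings. Each was compared by Fisher's exact test, two-sided, with Benjamini-Hochberg adjustment over 8 comparisons. Against near intronic peaks, the share with a Sox word was 64.2% and 54.5% (odds ratio 1.5, 95% interval 1.06 to 2.12, adjusted p = 0.087), and that with a Tead word 35.0% and 26.4% (1.5, 1.04 to 2.17, adjusted p = 0.087). The E-box share was 64.6% and 70.2% (0.774, 0.541 to 1.11, adjusted p = 0.20) and the Runx share 73.5% and 66.1% (1.43, 0.987 to 2.06, adjusted p = 0.10). None of the 4 passed the threshold, which does not show that the shares were alike.

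Against intergenic peaks, Tead words were more frequent in the members, at 35.0% and 23.7% (odds ratio 1.73, 95% interval 1.19 to 2.54, Fisher's exact test, adjusted p = 0.043). That call did not hold in 6 of 8 other settings, in which the odds ratio was 1.42 to 1.60. One of these was the comparison with the 174 intergenic peaks that also had no Pol II peak within 10 kb, added after seeing the data, in which the shares were 35.0% and 26.4% (1.5, 0.982 to 2.29, Fisher's exact test, adjusted p = 0.14). The Sox share of those 174 peaks was 67.2%, above that of the members. For Sox words, E-boxes and Runx words the odds ratios against all intergenic peaks were 1.37, 1.06 and 1.46 and none passed (Fisher's exact test, adjusted p = 0.12, 0.79 and 0.095).

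Base composition differed between the intronic groups. The GC share of the 201-base windows was 46.8% ± 5.42 (SD, n = 257) in the members and 48.9% ± 5.39 (SD, n = 292) in near intronic peaks, a difference of -2.11 percentage points (two-sided permutation test, 100000 permutations, p = 2.0e-05). The direction and the call were kept with 200 bp on each side and with Pol II limits of 5 and 20 kb. The difference is small beside the spread within each group, and its part in the motif shares was not tested.

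Whether host genes carried Pol II at their start was asked of the starts that lay beyond 10 kb of every member. The rule sets no direct limit on Pol II there, but it chose the hosts by Pol II inside them. Their starts are therefore not independent of the rule, and the shares are a description. Of the 233 host genes, 205 had a start window of 1000 bp wholly beyond 10 kb of each of their members, and 161 of these had the 10 input reads needed for a test. In 69 of the 161 (42.9%) Pol II was above input (limma, adjusted p under 0.05), as against 45.7% of all 18022 genes tested, and the median log2 ratio was 1.36 against 1.31. By the deposited peak lists, a Pol II peak overlapped 19 of the 205 starts (9.27%), beside 13.7% of all genes and 7.70% of those of 100 kb or more. None of these shares was tested against another. The count fell to 46 (28.6%) without input replicate 1, where 35.2% of all genes passed, and to 48 (29.8%) without input replicate 2, where 38.2% did. Of the 28 hosts with a start closer to a member, 7 of 21 tested (33.3%) were above input.

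**Figure D5:**
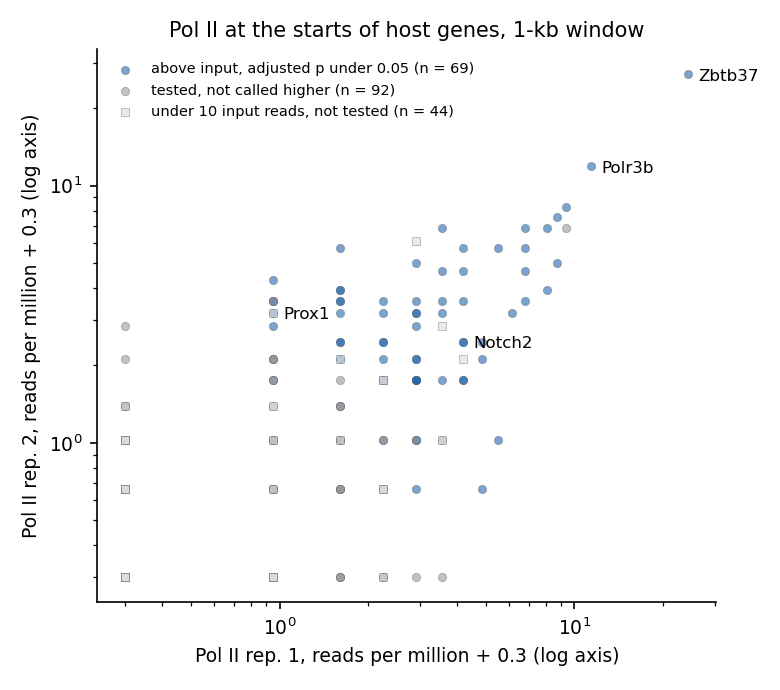
Pol II at the starts of the 205 host genes whose start window lay beyond 10 kb of each member, in RPM plus 0.3 within 1000 bp, in replicate 1 (horizontal, log axis) and replicate 2 (vertical, log axis). Blue points are the 69 starts above input, grey circles the other starts tested and squares the 44 with under 10 input reads; Zbtb37 and Polr3b lie highest and most points are below 10 RPM in both replicates.

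The highest start was that of Zbtb37, a zinc finger gene, with 37 and 74 Pol II reads, or 24.05 and 26.8 RPM, against 7 and 14 input reads (log2 ratio 5.83 ± 0.34, limma, n = 2 against 2). No Pol II peak lay in the body of Zbtb37, and the peak at its start was in the window but upstream of the gene. The reads of this window therefore cannot be assigned to Zbtb37 itself. Polr3b, which encodes a subunit of RNA polymerase III, had 17 and 32 Pol II reads against 35 and 35 (2.91 ± 0.31). Yme1l1, a mitochondrial protease, had 14 and 22 against 16 and 15 (3.66 ± 0.39), and Hlcs, which attaches biotin to carboxylases, 13 and 20 against 10 and 12 (4.02 ± 0.43). Sfi1 ranked among the 5 highest by Pol II reads, 14 and 18, but had 160 and 221 input reads and no excess over them (-0.04 ± 0.25). At the starts of Foxn3, Igf1 and Sox6 each Pol II library held a single read, and none of these starts passed. At the start of Prox1 the Pol II libraries had 1 and 8 reads and the inputs 2 and 6, too few for the test.

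Over whole gene bodies the hosts of members had a median of 0.679 and 0.689 reads scaled to gene length and library size (RPKM) in the Pol II libraries and 0.598 RPKM in each input. Over all genes the medians were 0.426 and 0.410 RPKM for Pol II and 0.459 and 0.474 RPKM for input. In genes of 100 kb or more they were 0.308 and 0.295 for Pol II and 0.479 and 0.462 for input. The Pol II medians were thus above the input medians in hosts and below them in both other sets. Each median was taken within a library, so no gene was compared with its own input. These levels were not tested. Hosts of near intronic peaks had medians of 2.23 and 2.30 RPKM, which is in part what the distance rule requires. Of the 233 hosts, 80 (34.3%) overlapped a Pol II peak somewhere and 153 did not, where 19.95% of all genes and 25.1% of the 2391 genes of 100 kb or more overlapped one. The distance rule used the same Pol II lists and limits this overlap, so nothing is read from it. Both kinds of intronic peak were found in 13 genes.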

How the data were processed

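ChIP-seq was performed for Sox6 and Pol II in myotubes, with input DNA, in 2 libraries each. The authors aligned reads with Bowtie 0.12.5 (submitters' processing notes) to NCBI Build 37 and kept uniquely mapped reads. Peaks were called library by library with SISSRs, set to fragments of 450 bp and given the input, and they took Sox6 peaks of both replicates within 50 bp as common. The deposited files hold positions of reads and peaks, with no counts and no normalization. Whether repeated positions had been removed is not given in the sources used here, and 2.96% to 7.88% of the reads repeat a position.

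Gene models were GENCODE models of NCBI Build 37 for 23274 genes with a RefSeq transcript, matched by name. A centre in an exon of any longest model counted as exonic. Read 5' ends were counted in 450-bp windows around peak centres and 1000-bp windows around gene starts. limma 3.58.1 (R 4.3.3) with a trend was fitted to log2 counts relative to library size, after adding 0.5 reads, over all 1066 common peaks or over 18022 genes with at least 10 reads in both inputs together, and p-values were adjusted by Benjamini-Hochberg at 0.05. The limit of 10 input reads was set after simulated data had shown false calls without it. The scripts were tested on simulated data. Motifs and GC were compared by Fisher's exact test and by permutation (scipy 1.17.1). With 2 libraries a group, limma p-values measure the spread between these libraries, which may be technical. Those of Fisher's exact test and of the permutation treat peaks as the units and measure the spread among peaks.

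The members and gene lists were chosen with earlier results of these data known. Members named are the 10 with the highest Sox6 log2 ratio, hosts of 3 or more, up to 5 hosts a list, hosts the study names, the 5 peaks on each side of 10 kb and the 5 hosts with the most Pol II at their start. Others named for a single extreme or count, such as Acvr1b, Tcte2 and Smo, were chosen after their values were seen. A member beyond 10 kb and a host of a list that this rule names are not reported here. Sequences were read from the genome of the same build.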

Additional observations from a re-analysis of the deposited data

How the results depend on the processing

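The number of members was 157 with a limit of 50 kb to the nearest Pol II peak and 220 to 331 in the 5 to 20 kb, single Pol II list, exon and input settings. The median Sox6 log2 ratio was 2.90 in windows of 1000 bp, 3.78 in the deposited intervals and 3.38 to 3.81 when a library was left out. The median Pol II log2 ratio was 1.02 in windows of 1000 bp and 1.23 to 1.47 without a library. Members with more Sox6 than input numbered 246 to 253 without a library, members with more Pol II 12 to 106, and host starts with more Pol II 46 to 80. The cause of these shifts was not tested. The lowest Pol II counts came from leaving out an input, and without a Pol II library 103 and 106 members and 71 and 80 host starts passed.

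Odds ratios against intergenic peaks turned for E-boxes, with no call in either direction: 0.96 with 50 bp on each side, 0.881 in deposited intervals, 0.943 with 1 peak a gene, 0.993 with a limit of 5 kb, 0.817 without peaks of many input reads and 0.96 against intergenic peaks without Pol II. In deposited intervals the Runx ratio was 0.998, and against intergenic peaks without Pol II the Sox ratio was 0.874. The Tead ratio lost its call at 1.42 with 50 bp, 1.47 with 200 bp, 1.46 in deposited intervals, 1.52 with 1 peak a gene, 1.60 without peaks of many input reads and 1.5 against intergenic peaks without Pol II. Against near intronic peaks, the E-box ratio gained a call at 0.565 in deposited intervals (Fisher's exact test, adjusted p = 0.011) and the Sox ratio at 1.65 with a limit of 5 kb (Fisher's exact test, adjusted p = 0.019). The cause was not tested.

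With the replicate number as a replicate block, 250 members passed for Sox6 and 89 for Pol II, as did 67 host starts for Pol II (96.3% and 54.8% of all common peaks and 44.2% of all starts), so no count moved by over 1.5 times. Deviations of same-numbered ChIP and input libraries correlated at -0.02 for Sox6 and -0.02 for Pol II over common peaks and at 0.03 over gene starts. Counting error is large at so few reads per window, so these values cannot decide whether the libraries were paired. The median member had 15 and 9 Sox6 reads, which leaves the order of most members unresolved. The fit of host starts without a limit on input reads, the Pol II block, the intergenic peaks without Pol II, the summed ratios and the medians without members of many input reads (3.62 for Sox6 and 1.34 for Pol II) and the member count of 258 with a peak that is also in an exon of an overlapping gene were added after seeing the data.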

Other observations

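A total of 6 members held none of the 4 kinds of word within 100 bp of the centre, in Bbox1, Dab2ip, Fggy, Tcte2, Smo and Sfi1. Of these, Tcte2, Smo and Sfi1 were among the 11 members with many input reads. Bbox1, which encodes an enzyme of carnitine synthesis, had 36 and 14 reads from Sox6 and 18 and 10 from input (log2 ratio 4.19 ± 0.45, limma, n = 2 against 2), above the upper quartile of the members. These genes were picked out after their values were seen.

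The member in D4Bwg0951e lay 1561 bp from a gene start and 1778 kb from the nearest Pol II peak, with 15 and 16 reads from Sox6 and 4 and 13 from input (log2 ratio 4.50 ± 0.48). The member in Fbxo32, a muscle ubiquitin ligase, lay 2912 bp from the start, with 10 and 5 Sox6 reads against 5 and 11 (3.40 ± 0.66) and the nearest Pol II peak 236 kb away. The highest Pol II log2 ratio of a member was 3.88, in Ankrd44, with 5 and 7 Pol II reads against 2 and 9 input reads. The next was 3.71 at the stronger Prox1 member, with 2 and 7 Pol II reads.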
